A study of Danio rerio with 35 samples.

Results

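The heat shock genes hspa8 and hspb1 were followed in zebrafish embryos from 2 to 8 hours after fertilization (hpf), the time in which stored maternal RNA gives way to transcripts of the embryo's own genome. The pair was selected on its measured levels in Nanog + SoxB1 MO and WT embryos at 6 hpf, because the 2 genes moved in opposite directions there, so that contrast is described without a test. Matching identifiers to the 2 symbols gave 3 of the 27151 single-gene entries of the exon table, 3 of the 24124 of the intron table and 2 of the 9411 transcripts of the ribosome profiling table. The symbol hspa8 was paired with 2 identifiers. ENSDARG00000068992 is called hspa8 here, ENSDARG00000037403 is called the second hspa8 entry, and hspb1 was ENSDARG00000041065. A further exon entry that joins hspa8 to the small nucleolar RNA gene snord14 was listed at 0 in 30 of 31 mRNA libraries.

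The direction named in the choice of the pair held for the second hspa8 entry only. In Nanog + SoxB1 MO embryos at 6 hpf, hspa8 itself, the abundant entry, lay below WT as hspb1 did, though by far less. Members of the HSP70 family are close in sequence, and the sources used here do not state how reads that match several of them were counted, so levels of the second entry are uncertain.

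The gene hspa8 codes for Hsc70, the constitutive cytosolic member of the HSP70 chaperones. These bind exposed hydrophobic stretches of unfolded proteins and release them in a cycle of ATP hydrolysis that DNAJ (HSP40) proteins start and nucleotide exchange factors reset. The gene hspb1 codes for the small heat shock protein Hsp27, which holds unfolding proteins in large oligomers without using ATP and also binds to the cytoskeleton. Heat shock factors such as Hsf1 switch on many chaperone genes under stress, and several chaperones are also switched on in development without stress.

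Libraries came from whole embryos, 5 per mRNA library and 50 per profiling condition. They came from strain MZpou5f1 {hi349Tg/hi349Tg}, which lacks maternal and zygotic pou5f1 (symbol pou5f3 in the annotation), or from strain TUAB for WT and all other groups, so mutation and strain cannot be told apart. Total RNA at 4 hpf covered MZpou5f1, Nanog MO and SoxB1 MO alone and in every combination, triple loss with rescue mRNA, alpha-amanitin (an inhibitor of RNA polymerase II), cycloheximide (an inhibitor of translation), U1U2 MO (against the spliceosomal U1 and U2 RNAs) and untreated WT, each with 1 library. Triple loss here means MZpou5f1 embryos with both Nanog MO and SoxB1 MO. Total RNA at 6 hpf covered Nanog + SoxB1 MO (n = 2), Nanog MO, MZpou5f1, MZpou5f1 SoxB1 MO, triple loss, alpha-amanitin, cycloheximide and WT (n = 3). WT at 2 hpf had 1 total RNA library. Poly(A)+ RNA covered triple loss with rescue mRNA and triple loss at 6 and 8 hpf, and WT at 4, 6 and 8 hpf, each with 1 library. Profiling took Nanog + SoxB1 MO and WT embryos at the 64-cell stage, each with 1 footprint and 1 input library. Morpholinos (MO, antisense oligonucleotides), alpha-amanitin and rescue mRNA were injected at the 1-cell stage, and cycloheximide was added to the bath from the 32-cell stage. The labels name neither the genes behind the rescue mRNA and the SoxB1 MO nor a control injection, and WT embryos were untreated.

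Levels are exon or intron RPKM (reads divided by gene length and library size), as the authors deposited them. Total depth is unknown for these libraries, but relative depth ran from 0.227 in Nanog + SoxB1 MO replicate 1 at 6 hpf to 2.56 in cycloheximide at 4 hpf, in units of the WT total RNA library of that stage. The 2 Nanog + SoxB1 MO libraries at 6 hpf differed from each other several-fold in the second hspa8 entry, hsp70.3 and hsp90aa1, and results that rest on them are given for each. The library labelled MZpou5f1 at 4 hpf held 27.99 RPKM of pou5f3, against 157.5 in WT, whereas the other MZpou5f1 libraries without rescue at 4 hpf held 0.088 to 1.87.

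At 6 hpf, hspb1 was nearly absent from Nanog + SoxB1 MO embryos. Its exon level was 3.68 and 7.19 RPKM in the 2 Nanog + SoxB1 MO libraries, against 452.7, 357.1 and 292.6 in the 3 WT libraries. Means were 5.43 ± 2.48 in Nanog + SoxB1 MO (SD, n = 2) and 367.5 ± 80.5 in WT (SD, n = 3), 67.6-fold lower in Nanog + SoxB1 MO. On the log2(RPKM + 0.5) scale the difference was −6.00 ± 0.29 (SE), or −6.39 with each library centred on its median. The groups did not overlap for hspb1, which was chosen on this contrast, so this is no support. Of 16242 genes 44.3% were called here, and the share without overlap was not counted.

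For hspa8 the same libraries stood close together. Its exon level was 1847 and 1901 RPKM in Nanog + SoxB1 MO, against 2339, 2311 and 2670 in WT, or 76.8% of the WT mean. Both Nanog + SoxB1 MO libraries lay below all 3 WT libraries, at −0.38 ± 0.10 on the log2 scale. The median of all 16242 genes tested in this contrast was 0.30 higher in Nanog + SoxB1 MO. With each library centred on its own median before the fit, the hspa8 difference was −0.77.

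The second hspa8 entry went the other way, from a very low WT level. It stood at 1.28 and 7.93 RPKM in Nanog + SoxB1 MO, against 0.083, 0.119 and 0.229 in WT. Reads estimated from the step size of the values came to 9 and 74 in Nanog + SoxB1 MO, against 5 over the 3 WT libraries together. By these reads, replicate 1 stood 8.59-fold and replicate 2 53.3-fold above WT, given as a description with no interval, since this contrast chose the pair. Both libraries were above WT, and replicate 2 held most of the reads.

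In WT, hspa8 was already among the most abundant messages at 2 hpf, while nearly all hspb1 appeared later. At 2 hpf hspa8 stood at 867.8 RPKM, rank 14 of 27151 entries by RPKM, while hspb1 stood at 4.77. In WT total RNA, hspa8 was 868 RPKM at 2 hpf, 1247 at 4 hpf and 2440 ± 199 at 6 hpf (SD, n = 3), a 2.81-fold higher level at 6 than at 2 hpf. Over the same stages hspb1 was 4.77, 25.6 and 367.5 RPKM, 77.0-fold higher at 6 than at 2 hpf. Poly(A)+ RNA of WT held hspb1 at 54.1, 1688 and 1630 RPKM at 4, 6 and 8 hpf, so its level at 8 hpf was 96.5% of that at 6 hpf. In the same libraries hspa8 stood at 1468, 2193 and 1931 RPKM. At 6 and 8 hpf hspb1 ranked 18 and 21 of all entries in WT poly(A)+ RNA, close to hspa8 at 11 and 13. The WT level of hspb1 at 6 hpf was 4.59-fold higher in poly(A)+ than in total RNA, against 0.90-fold for hspa8. No WT stage other than total RNA at 6 hpf had a replicate, so these changes over time carry no test.

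**Figure D1:**
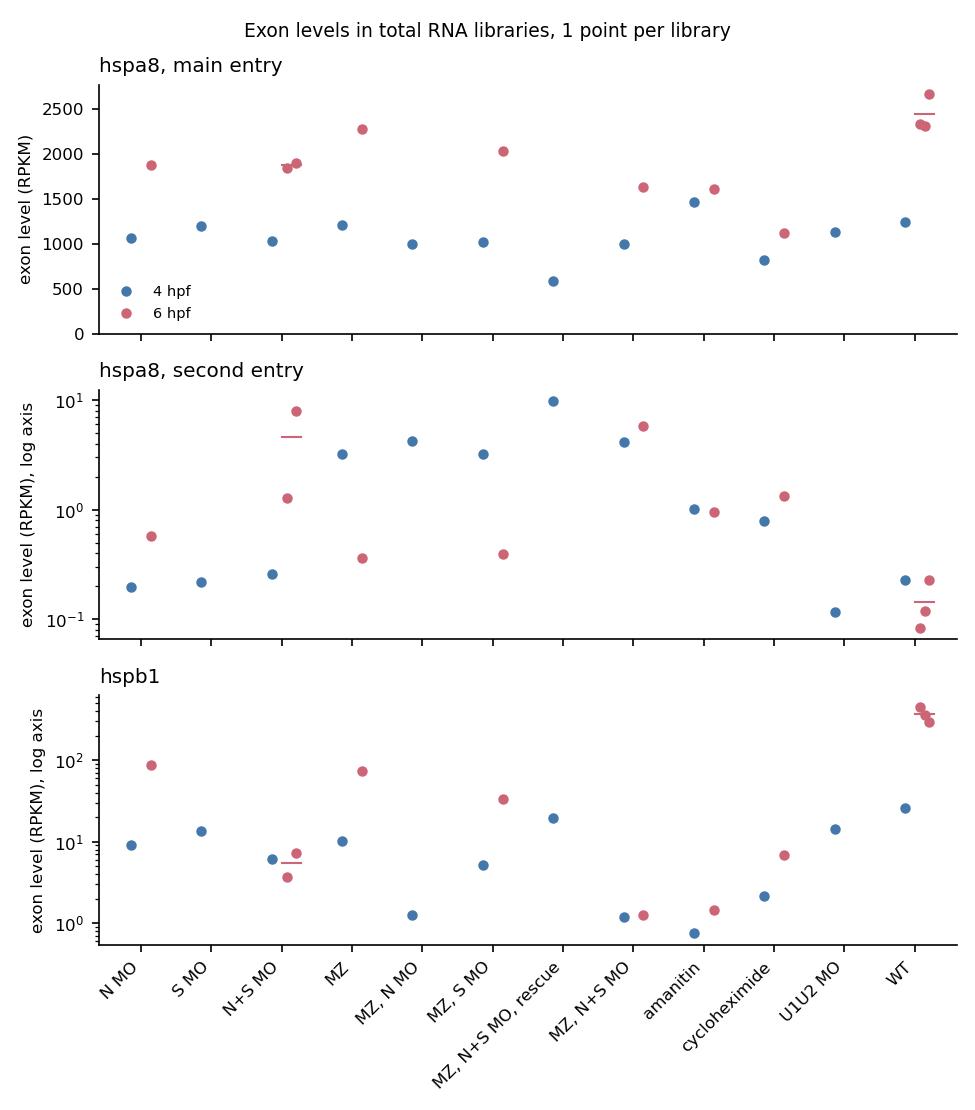
Exon level in RPKM of hspa8 (linear axis), the second hspa8 entry and hspb1 (log axes) in the total RNA libraries at 4 hpf (blue) and 6 hpf (red), 1 point per library and a line at the mean where a group has replicates; N, S and MZ stand for Nanog, SoxB1 and MZpou5f1. hspb1 is highest in WT at both stages, hspa8 stays between 590.5 and 2670 RPKM throughout, and the second entry is highest with rescue mRNA at 4 hpf and in Nanog + SoxB1 MO replicate 2 at 6 hpf.

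The 8 total RNA libraries at 4 hpf with each combination of the 3 losses had played no part in choosing the pair. In them hspb1 fell with loss of Nanog and in the MZpou5f1 background, and the SoxB1 MO effect did not pass the test. Its level was 9.20 RPKM in Nanog MO, 13.6 in SoxB1 MO, 6.13 in Nanog + SoxB1 MO, 10.3 in the library labelled MZpou5f1, 1.25 in MZpou5f1 Nanog MO, 5.21 in MZpou5f1 SoxB1 MO and 1.19 in triple loss, against 25.6 in WT. All 7 were below WT, from 4.65% to 53.01% of it. The 2 lowest both combined MZpou5f1 with Nanog MO.

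An additive fit gave a Nanog MO effect on hspb1 of −1.72 ± 0.23 (log2, SE; limma, adjusted p = 0.00404), and 7.68% of 14498 genes were called for this factor (5.35% higher and 2.34% lower). The MZpou5f1 effect on hspb1 was −1.76 ± 0.23 (limma, adjusted p = 0.000501), where 42.2% of genes were called (24.1% higher and 18% lower). The SoxB1 MO effect was −0.60 ± 0.23 (limma, adjusted p = 0.241), with a 95% interval of −1.12 to −0.08, and 0.145% of genes were called (0.0897% higher and 0.0552% lower). Both hspb1 calls held when any of the 8 libraries was left out. Without the library labelled MZpou5f1, the MZpou5f1 effect was −1.95 (limma, adjusted p = 0.000538).

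No factor changed hspa8 past the threshold at 4 hpf. Its level was 1065 RPKM in Nanog MO, 1205 in SoxB1 MO, 1031 in Nanog + SoxB1 MO, 1208 in the library labelled MZpou5f1, 1002 in MZpou5f1 Nanog MO, 1023 in MZpou5f1 SoxB1 MO and 998 in triple loss, against 1247 in WT. Each was below WT, at 80.1% to 96.9% of it. The largest of the 3 effects, that of Nanog MO, was −0.19 ± 0.09 (limma, adjusted p = 0.237), with a 95% interval of −0.39 to 0.01. For SoxB1 MO the interval was −0.28 to 0.11, and for MZpou5f1 −0.30 to 0.10.

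The second hspa8 entry split the 8 libraries of the 4 hpf fit by strain. It stood at 3.22 RPKM in the library labelled MZpou5f1, 4.20 in MZpou5f1 Nanog MO, 3.20 in MZpou5f1 SoxB1 MO and 4.17 in triple loss, against 0.195 in Nanog MO, 0.219 in SoxB1 MO, 0.257 in Nanog + SoxB1 MO and 0.226 in WT. The 4 MZpou5f1 libraries and the 4 TUAB libraries of this fit did not overlap. Other TUAB libraries at 4 hpf varied more. U1U2 MO stood at 0.116 RPKM, cycloheximide at 0.789, WT poly(A)+ RNA at 0.823 and alpha-amanitin at 1.01. The share of all genes that split in this way was not counted. In the same fit 42.2% of 14498 genes were called for MZpou5f1, 24.1% of them higher and 18% lower as shares of all genes. The fitted MZpou5f1 difference was 2.53 ± 0.17 on the log2(RPKM + 0.5) scale, and no p is given because the entry passed the filter on low values through the MZpou5f1 libraries alone. By estimated reads, the library labelled MZpou5f1 stood 14.2-fold above WT (6.66 to 36.1) and triple loss 18.4-fold (8.61 to 47.1), while Nanog + SoxB1 MO stood at 1.13 times WT (0.189 to 4.97). Ranges in parentheses are exact 95% binomial intervals and cover counting error only. With 1 library per condition they are no test of a difference between the strains.

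At 6 hpf MZpou5f1 embryos without Nanog MO held less of the second entry than at 4 hpf, though more than each WT library. The second entry was at 0.364 RPKM in MZpou5f1 and 0.391 in MZpou5f1 SoxB1 MO, against 0.083 to 0.229 in WT. By estimated reads MZpou5f1 stood at 2.45 times WT, on 8 reads against 5 in WT. Nanog MO stood at 0.573 RPKM, 3.85 times WT, on 7 reads. Triple loss was at 5.85 RPKM, 39.4 times WT, between the 2 Nanog + SoxB1 MO libraries. These ratios carry no interval, since the same WT libraries chose the pair, and a difference from WT was not tested.

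In each loss of a factor measured at 6 hpf, which left out SoxB1 MO alone, hspb1 stood below every WT library. The same WT libraries chose the pair, so this is no support. The share of all genes that lay below every WT library was not counted. It stood at 87.9 RPKM in Nanog MO, 72.6 in MZpou5f1, 33.4 in MZpou5f1 SoxB1 MO and 1.26 in triple loss, against 292.6 to 452.7 in WT. Triple loss was 293-fold below the WT mean, and Nanog MO and MZpou5f1 were 4.18-fold and 5.06-fold below it. In descending order the conditions ran WT, Nanog MO, MZpou5f1, MZpou5f1 SoxB1 MO, Nanog + SoxB1 MO and triple loss. Nanog MO and MZpou5f1, neighbours in this order with 1 library each, cannot be ranked against each other from these data. For hspa8 the levels were 1878 RPKM in Nanog MO, 2274 in MZpou5f1, 2037 in MZpou5f1 SoxB1 MO and 1629 in triple loss, also all below the lowest WT library at 2311. The lowest, triple loss, was at 66.8% of the WT mean. The limits given for hspb1 hold for hspa8 too.

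Intron reads can come from transcripts not yet spliced, though their source was not tested here. Those of both genes were far higher at 4 and 6 hpf than at 2 hpf. In WT, hspa8 introns stood at 0.435 RPKM at 2 hpf, 13.2 at 4 hpf and 20.2, 14.6 and 21.4 at 6 hpf. That was 30.3-fold more at 4 than at 2 hpf, while exons were 1.44-fold higher. Introns of hspb1 stood at 0.101 RPKM in WT at 2 hpf (2 estimated reads), 4.55 at 4 hpf (291 reads) and 11.6, 10.1 and 6.98 at 6 hpf. Introns of the second hspa8 entry never passed 0.468 RPKM in the 24 total RNA libraries.

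At 4 hpf the introns of hspb1 fell with Nanog MO. They stood at 0.785 RPKM in Nanog MO, 1.49 in SoxB1 MO, 2.21 in the library labelled MZpou5f1 and 1.25 in MZpou5f1 SoxB1 MO, against 4.55 in WT. No hspb1 intron read was seen in Nanog + SoxB1 MO at 4 hpf. With 3 reads taken as the limit for a count of 0, the level would be 0.124 RPKM, 36.6-fold lower than in WT. That limit leaves out the counting error of WT and the spread between libraries. MZpou5f1 Nanog MO held 0.013 RPKM and triple loss 0.042, with 2 estimated reads each. The Nanog MO effect on hspb1 introns was −3.49 ± 0.49 (log2(RPKM + 0.1), SE; limma, adjusted p = 0.00157), where 8.83% of 4539 genes were called (0.308% higher and 8.53% lower), and it was called in 8 of 8 fits with a library left out. Effects of SoxB1 MO (−1.29 ± 0.49, limma, adjusted p = 0.520) and MZpou5f1 (−0.93 ± 0.49, limma, adjusted p = 0.237) on hspb1 introns were not called, against 0.022% and 9.72% of genes (for MZpou5f1, 6.79% higher and 2.93% lower). A difference between the exon and intron effects of MZpou5f1 was not tested.

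Introns of hspa8 did not change with any factor past the threshold at 4 hpf. They stood at 14.6 RPKM in Nanog MO, 15.4 in SoxB1 MO, 10.5 in Nanog + SoxB1 MO, 26.2 in the library labelled MZpou5f1, 14.4 in MZpou5f1 Nanog MO, 10.4 in MZpou5f1 SoxB1 MO and 6.69 in triple loss, against 13.2 in WT. Values lay on both sides of WT. The Nanog MO effect was −0.47 ± 0.30 (limma, adjusted p = 0.345), with a 95% interval of −1.15 to 0.20.

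By 6 hpf both genes had fewer intron reads in the combined losses. In Nanog + SoxB1 MO, hspa8 introns were at 7.99 and 8.93 RPKM, against 20.2, 14.6 and 21.4 in WT, or 45.1% of the WT mean, while exons were at 76.8%. Triple loss held 8.03 RPKM of hspa8 introns, 42.8% of the WT mean. Nanog MO at 13.97 and MZpou5f1 SoxB1 MO at 14.5 lay just under the lowest WT library, and MZpou5f1 at 15.9 lay within the WT range. For hspb1, introns stood at 0.275 and 0.519 RPKM in Nanog + SoxB1 MO, 24.05-fold below the WT mean of 9.55 ± 2.36 (SD, n = 3). Triple loss showed no hspb1 intron read at 6 hpf. The same limit of 3 reads would stand 152-fold below the WT mean, again without the spread between libraries. Nanog MO at 4.28, MZpou5f1 at 5.40 and MZpou5f1 SoxB1 MO at 2.93 were below all 3 WT libraries. The share of all genes with introns below all 3 was not counted.

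**Figure D2:**
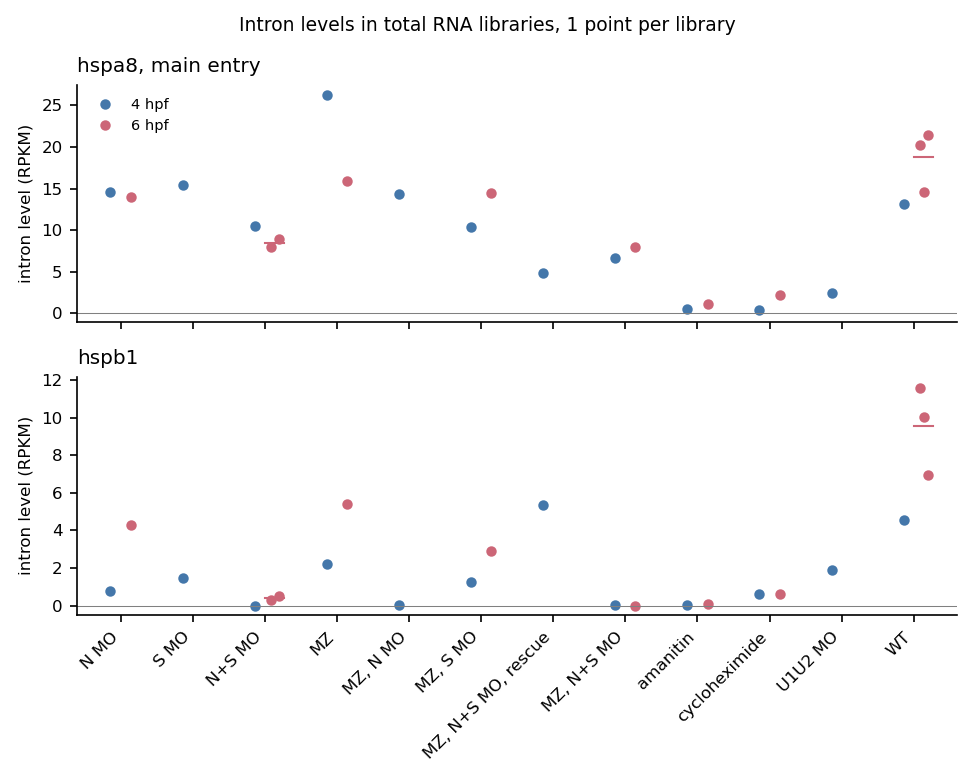
Intron level in RPKM of hspa8 and hspb1 in the total RNA libraries at 4 hpf (blue) and 6 hpf (red), linear axes, 1 point per library and a line at the mean where a group has replicates; N, S and MZ stand for Nanog, SoxB1 and MZpou5f1. hspb1 introns are at or near 0 in the conditions that combine Nanog MO with another loss, without rescue mRNA, where hspa8 introns stand between 6.69 and 14.4 RPKM.

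With alpha-amanitin, hspa8 kept most of its exon signal and lost most of its intron signal, and hspb1 had little of either. With alpha-amanitin, hspa8 exons stood at 1472 RPKM at 4 hpf, against 1247 in WT, and at 1613 at 6 hpf, against 2440 ± 199 in WT (SD, n = 3). Both levels were above the 868 RPKM of untreated WT at 2 hpf, a difference that was not tested. Its introns were at 0.465 and 1.16 RPKM with alpha-amanitin, 3.53% and 6.19% of WT at 4 and 6 hpf. Exons of hspb1 with alpha-amanitin were at 0.749 and 1.44 RPKM at 4 and 6 hpf, against 25.6 and 367.5 in WT, below the 4.77 RPKM of untreated WT at 2 hpf. The second hspa8 entry stood at 1.01 and 0.948 RPKM with alpha-amanitin at 4 and 6 hpf, against 0.226 and a mean of 0.144 in WT.

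Embryos in cycloheximide from the 32-cell stage had little intron signal of hspa8. Its introns stood at 0.417 RPKM with cycloheximide, against 13.2 in WT at 4 hpf, and at 2.24, against 18.75 in WT at 6 hpf. Exons of hspa8 were at 820.5 and 1126 RPKM with cycloheximide at 4 and 6 hpf, 65.8% and 46.1% of WT. Introns of hspb1 with cycloheximide stood at 0.600 RPKM at both stages, 13.2% of WT at 4 hpf and 6.28% at 6 hpf, and exons at 2.16 and 6.80 RPKM. The hspb1 intron level with cycloheximide at 4 hpf rested on 98 estimated reads, against 1 read with alpha-amanitin. The second hspa8 entry stood at 0.789 RPKM with cycloheximide at 4 hpf (62 estimated reads), against 0.226 in WT. At 6 hpf that entry was at 1.32 (16 reads), against a mean of 0.144 in WT and 1.28 in Nanog + SoxB1 MO replicate 1. These differences were not tested. U1U2 MO at 4 hpf gave hspb1 exons at 55.2% and introns at 41.6% of WT, and hspa8 exons at 90.8% and introns at 18.3%.

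In triple-loss embryos hspb1 rose with rescue mRNA. At 4 hpf in total RNA hspb1 was at 19.6 RPKM with rescue mRNA and 1.19 in triple loss, against 25.6 in WT. At 6 hpf in poly(A)+ RNA it was at 698.7 with rescue mRNA and 6.60 in triple loss, against 1688 in WT. At 8 hpf it was at 1243 with rescue mRNA and 6.12 in triple loss, against 1630 in WT. Rescued embryos thus held 76.3%, 41.4% and 76.3% of the WT level at 4, 6 and 8 hpf. The hspb1 introns at 4 hpf stood at 5.37 RPKM with rescue mRNA (705 estimated reads), 0.042 in triple loss (2 reads) and 4.55 in WT (291 reads).

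Over the 3 stages hspb1 fell in triple loss, at −6.60 ± 0.76 against WT on the log2 scale (limma, adjusted p = 0.00844), where 16.2% of 16028 genes were called (11.6% higher and 4.64% lower). With rescue mRNA it was 5.91 ± 0.76 higher than in triple loss (limma, adjusted p = 0.0156), where 0.611% of genes were called (0.605% higher and 0.00624% lower). Rescue and WT differed by −0.68 ± 0.76 (limma, adjusted p = 0.604), with a 95% interval of −2.44 to 1.07 and 0.799% of genes called (0.611% higher and 0.187% lower). In the 6 poly(A)+ libraries alone that difference was −0.83 ± 0.23 and was called (limma, adjusted p = 0.0208), where 50.5% of all genes were called. The triple-loss call was lost without WT at 6 hpf (adjusted p = 0.0704) or WT at 8 hpf (adjusted p = 0.0593). The rescue call was lost in 4 of 9 fits with a library left out, with adjusted p up to 0.118, while its size stayed between 5.17 and 7.16. This fit joins total RNA at 4 hpf with poly(A)+ RNA at 6 and 8 hpf and has 1 library per condition and stage.

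Levels of hspa8 differed less among these 9 libraries. It stood at 590.5 RPKM with rescue mRNA and 998 in triple loss, against 1247 in WT at 4 hpf. At 6 hpf it stood at 1420 with rescue mRNA and 1253 in triple loss, against 2193 in WT, and at 8 hpf at 1779 and 1604, against 1931 in WT. WT was highest at each stage, and rescue lay below triple loss at 4 hpf and above it at 6 and 8 hpf. Triple loss differed from WT by −0.46 ± 0.22 (limma, adjusted p = 0.141), with a 95% interval of −0.97 to 0.04. The median of all genes was 0.45 higher in triple loss than in WT, and with each library centred on its median the hspa8 difference was also −0.97 (adjusted p = 0.129). In the 6 poly(A)+ libraries alone it was −0.54 ± 0.17 and was called (limma, adjusted p = 0.0235), where 69.8% of all genes were called. Without triple loss at 4 hpf it was −0.65 and likewise called (limma, adjusted p = 0.0363), where 50.1% of all genes were. Rescue differed from triple loss by −0.14 ± 0.22 (limma, adjusted p = 0.892) and from WT by −0.61 ± 0.22 (limma, adjusted p = 0.156).

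The second hspa8 entry stayed above WT with rescue mRNA. At 4 hpf it stood at 9.79 RPKM with rescue mRNA and 4.17 in triple loss, against 0.226 in WT. In poly(A)+ RNA it was at 1.29 with rescue mRNA and 9.94 in triple loss, against 0.072 in WT at 6 hpf, and at 1.94 with rescue mRNA and 20.6 in triple loss, against 0.093 in WT at 8 hpf. By estimated reads, triple loss stood 137-fold above WT at 6 hpf (46.6 to 666.3) and 219-fold at 8 hpf (85.4 to 807.0), and rescue 17.8-fold (5.80 to 89.0) and 20.6-fold (7.73 to 77.3). Those WT libraries held 3 and 4 reads, and with 1 library per condition the ranges cover counting error only. Rescue was above triple loss at 4 hpf and below it at 6 and 8 hpf.

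**Figure D3:**
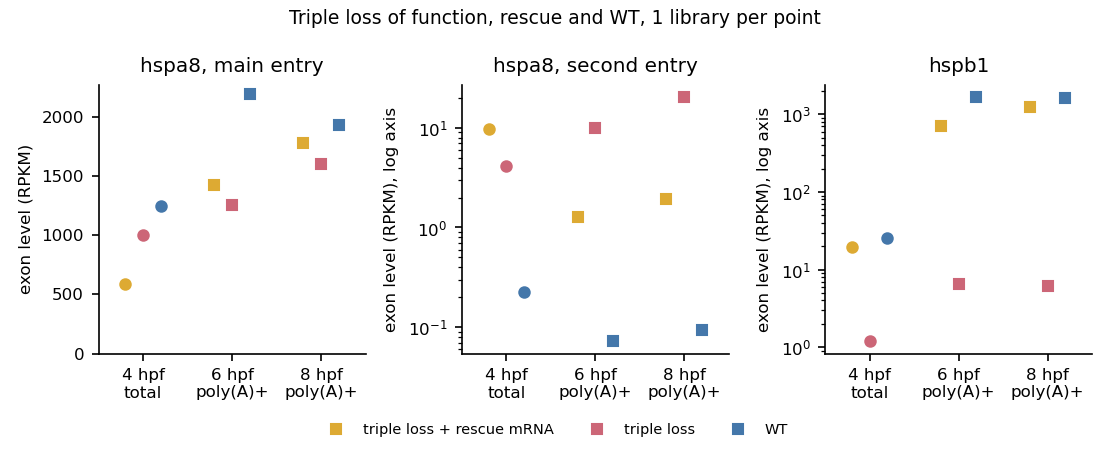
Exon level in RPKM at 4 hpf (total RNA, circles), 6 and 8 hpf (poly(A)+ RNA, squares) in triple loss with rescue mRNA (yellow), triple loss (red) and WT (blue), 1 library per point; hspa8 on a linear axis, the second hspa8 entry and hspb1 on log axes. hspb1 with rescue mRNA is at 698.7 and 1243 RPKM at 6 and 8 hpf and triple loss at 6.60 and 6.12, against 1688 and 1630 in WT.

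At the 64-cell stage, before most zygotic transcription, Nanog + SoxB1 MO and WT embryos held like amounts of hspa8 message. The input libraries gave 9451 reads or 4739 RPM (reads scaled to library size alone) in Nanog + SoxB1 MO, against 8744 reads or 4679 RPM in WT, a ratio of 1.01 (exact 95% binomial interval 0.984 to 1.04). It ranked 5 in Nanog + SoxB1 MO and 3 in WT of 9411 transcripts by RPM. Ribosome footprints came to 732 reads or 966.8 RPM in Nanog + SoxB1 MO (exact Poisson interval 898.1 to 1039), against 409 reads or 774.0 RPM in WT (700.8 to 852.7). The footprint ratio was 1.25 (1.11 to 1.41). With 1 library of each kind, the intervals cover counting error only, and there is no replicate check.

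Footprints per input message were low for hspa8. The ratio was 0.204 in Nanog + SoxB1 MO (0.189 to 0.220) and 0.165 in WT (0.149 to 0.183), against medians over 6874 transcripts of 0.680 and 0.696. hspa8 ranked 5510 in Nanog + SoxB1 MO and 5819 in WT by this ratio. For hspb1 the libraries were thin. Its footprints came to 16 reads in Nanog + SoxB1 MO and 10 in WT, a ratio of 1.12 (0.476 to 2.75). Its input came to 53 reads in Nanog + SoxB1 MO and 60 in WT, a ratio of 0.828 (0.561 to 1.22). A difference for hspb1 was not detectable at this depth.

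Other chaperone genes were read from 6 lists, with hspa8 and hspb1 left out. In Nanog + SoxB1 MO against WT at 6 hpf, 28 of 88 tested members rose and 10 fell, and their median was 0.22, against 0.30 over all genes, of which 30.3% rose and 14% fell (44.3% called in all). The shares over all lists stood near the background. With each library centred on its median the split was 18 rises and 25 falls, where 17.8% of all genes rose and 24.9% fell. Leaving out Nanog + SoxB1 MO replicate 1 left 16 rises and 6 falls, where 15% of all genes rose and 8.38% fell. Leaving out replicate 2 left 12 and 8, where 15.5% of all genes rose and 8.66% fell.

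The 5 largest rises called were those of hsp90aa1, hsp70.3, fkbp4, bag3 and dnajc3a. For hsp90aa1, an inducible HSP90, levels were 9.85 and 47.2 RPKM in Nanog + SoxB1 MO, against 1.92, 3.12 and 0.881 in WT (3.27 ± 0.68; limma, adjusted p = 0.00857). It was not called without Nanog + SoxB1 MO replicate 2 (adjusted p = 0.059). The inducible HSP70 gene hsp70.3 stood at 1.68 and 10.3 RPKM in Nanog + SoxB1 MO, against 0.089, 0.638 and 0.246 in WT (2.61 ± 0.67). No p is given for hsp70.3, because no WT library reached the 1 RPKM of the filter on low values. Its call, counted among the rises above, is no support. Both genes were several-fold higher in replicate 2 than in replicate 1, as the second hspa8 entry was. For fkbp4, a cochaperone of HSP90, the replicates were alike, at 124.5 and 132.3 RPKM in Nanog + SoxB1 MO, against 26.7, 29.8 and 25.5 in WT (2.21 ± 0.11; limma, adjusted p = 5.87e-05). The HSP70 exchange factor bag3 stood at 8.02 and 7.01 RPKM in Nanog + SoxB1 MO, against 1.41, 0.745 and 1.98 in WT (2.15 ± 0.35; limma, adjusted p = 0.00325). The endoplasmic reticulum DNAJ gene dnajc3a was at 7.28 in both Nanog + SoxB1 MO libraries, against 1.09, 1.56 and 1.27 in WT (2.12 ± 0.22; limma, adjusted p = 0.000628). These last 3 held with any library left out.

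The counts by list are descriptions, and no list was tested against the 30.3% of all genes that rose and the 14% that fell, or 17.8% and 24.9% after centring. Of 17 members of the HSP70 family and its exchange factors, 6 rose and none fell, with a median of 0.32 (6 and 4 after centring). Of 19 members of the HSP90 family and its cochaperones, 11 rose and 2 fell (median 0.54; 6 and 4 after centring). The larger fall was that of the cochaperone ttc4, at −0.67 ± 0.21 (limma, adjusted p = 0.0375), called in 1 of 5 fits with a library left out. The other was that of the constitutive HSP90 gene hsp90ab1, at 398.0 and 399.5 RPKM in Nanog + SoxB1 MO, against 643.2, 569.4 and 665.5 in WT (−0.65 ± 0.10; limma, adjusted p = 0.00285). Of 31 DNAJ genes 10 rose and 2 fell (median 0.41; 5 and 5 after centring), among the falls the ribosome-associated dnajc2 at −1.01 ± 0.18 (limma, adjusted p = 0.00513), which was not called without replicate 1 of Nanog + SoxB1 MO (adjusted p = 0.0576). The other DNAJ fall, dnajc9 at −0.60, and hsp90ab1 were named after their values were seen.

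Chaperonins and prefoldins help other proteins to fold, and the cytosolic ones act on newly made actin and tubulin. Of 15 tested, 1 rose and 5 fell, with a median of −0.03 (1 and 8 after centring), beside the same shares over all genes. The difference from those shares was not tested. The prefoldin gene pfdn4 stood at 8.29 and 9.63 RPKM in Nanog + SoxB1 MO, against 19.8, 20.5 and 17.0 in WT (−1.05 ± 0.17; limma, adjusted p = 0.00339). pfdn6 fell by 0.89 (limma, adjusted p = 0.00222) and the cytosolic chaperonin subunit gene cct4 by 0.75 (limma, adjusted p = 0.00176). The rest of the 6, named after their values were seen, were cct3 at −0.64, pfdn2 at −0.55 and the mitochondrial cochaperonin gene hspe1, which rose by 1.55.

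Among 5 heat shock factors and their binders, hsf2 fell by 0.47 (limma, adjusted p = 0.0312), a call kept in 2 of 5 fits with a library left out but not without either Nanog + SoxB1 MO library, and hsf1, the main stress-activated factor, stood at −0.33 ± 0.16 (limma, adjusted p = 0.135; 0.0123 after centring). Of the small heat shock protein list only hspb11 besides hspb1 passed the filter on low values, at 0.525 and 2.77 RPKM in Nanog + SoxB1 MO, against 2.76, 3.51 and 3.66 in WT (−1.05 ± 0.49; limma, adjusted p = 0.124; 0.0395 after centring). The other 7 measured, hspb2, hspb3, hspb6, hspb8, hspb9, hspb15 and cryab, reached at most 2.31 RPKM in any of the 31 mRNA libraries. None of hspb11, hsf1 and hsf2 was called in the other 6 exon contrasts, 0 of 18 values.

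**Figure D4:**
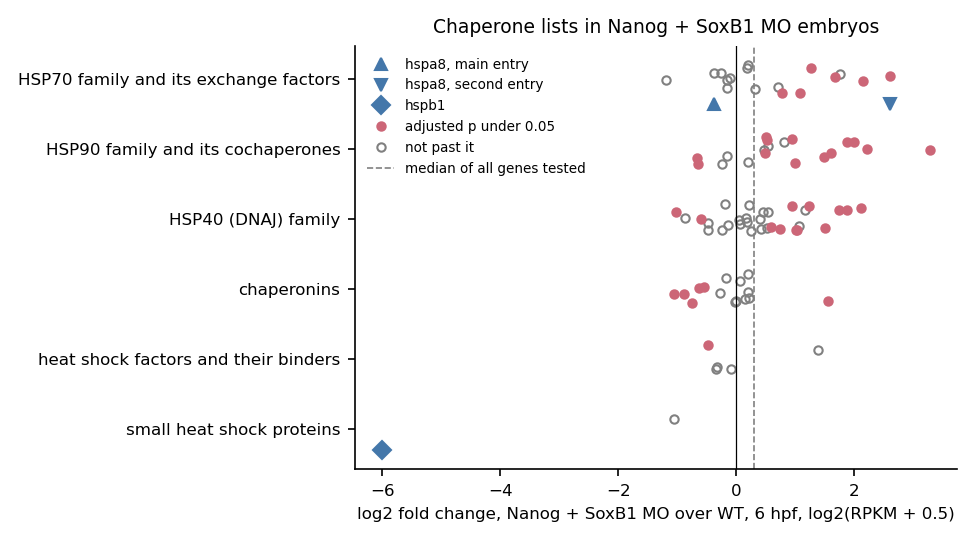
Log2 fold change of Nanog + SoxB1 MO over WT at 6 hpf, on log2(RPKM + 0.5), for each tested chaperone gene by list; filled red points passed an adjusted p of 0.05, open points did not, blue symbols are the members, and the dashed line is the median of all genes. hspb1 stands at −6.00, away from every other chaperone, and hspa8 at −0.38 lies among its family.

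Counts for the single factors at 4 hpf stood near or below the shares over all genes. For Nanog MO, where 7.68% of all genes were called, 3 of 84 members rose and none fell, all DNAJ genes: dnajc12 (1.27 ± 0.31; limma, adjusted p = 0.0437), dnajc9 (0.61, adjusted p = 0.00319) and dnajc24 (0.54, adjusted p = 0.0349), with only dnajc9 called in all 8 fits with a library left out. For SoxB1 MO limma called 0 of 84, against 0.145% of all genes. Of the 84, 14 had an unadjusted p under 0.05, and the share of all genes under that threshold was not counted. For MZpou5f1, 18 rose and 17 fell, with a median of 0.02, against 0.03 over all genes, of which 24.1% rose and 18% fell. The HSP90 activator gene ahsa1 (1.56), dnajc27 (1.46), dnajb2 (1.44), the HSP90 cochaperone gene chordc1 (1.41) and hsp90aa1 (1.18) rose most, and dnajb9 (−1.23), ttc4 (−1.18), the endoplasmic reticulum chaperone gene hyou1 (−0.70), hspa12a (−0.67) and dnajc15 (−0.57) fell most. All 10 were called by limma in 8 of 8 fits with a library left out.

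In triple loss against WT over 4 to 8 hpf, 6 of 89 members rose and 2 fell, with a median of 0.45, against 0.45 over all genes, of which 11.6% rose and 4.64% fell. With each library centred on its median, 1 rose and 3 fell, where 4.47% of all genes rose and 7.89% fell. Those named were hsp90aa1 (3.53 ± 0.98; limma, adjusted p = 0.0483), hsp70.3 (2.80 ± 0.76), chordc1 (1.74), dnajc18 (1.32) and hspe1 (1.29), which rose, and dnajb9 (−1.72) and the constitutive HSP90 gene hsp90ab1 (−0.89), which fell. No p is given for hsp70.3, because no WT library of this fit reached the 1 RPKM of the filter on low values. Its call, counted among the 6 rises, is no support. Leaving out a library moved the count of 8 to between 0 and 46, with 0 calls without any 1 of the 6 poly(A)+ libraries, 4 without rescue at 4 hpf, 41 without triple loss at 4 hpf and 46 without WT at 4 hpf. The share of all genes called moved likewise. It was 0.291% to 1.35% without 1 of the poly(A)+ libraries and 3.53% without rescue at 4 hpf. Without triple loss at 4 hpf it was 50.1%, and without WT at 4 hpf 48.4%. Neither rescue against triple loss nor rescue against WT gave a limma call among the 89, against 0.611% and 0.799% of all genes. Of the 89, 10 and 17 had an unadjusted p under 0.05, and the shares of all genes under that threshold were not counted. In the 6 poly(A)+ libraries alone, 64 members were called for triple loss, where 69.8% of all genes were called. There were 26 calls for rescue against triple loss, where 32.4% of all genes were called, and 46 for rescue against WT, where 50.5% were. The calls were 71.9%, 29.2% and 51.7% of the 89 members, near the shares over all genes.

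At 6 and 8 hpf the second hspa8 entry, hsp70.3 and hsp90aa1 were all higher in triple loss than in WT. At 4 hpf, where the second entry had its highest level in total RNA, 9.79 RPKM with rescue mRNA, hsp70.3 stood at 1.07 with rescue mRNA and 1.54 in triple loss, against 0.694 in WT. For hsp90aa1 the 4 hpf levels were 4.69 with rescue mRNA and 2.42 in triple loss, against 1.19 in WT. In triple loss at 6 hpf, total RNA, hsp70.3 and hsp90aa1 stood at 7.50 and 42.2 RPKM, between the 2 Nanog + SoxB1 MO libraries for both. In poly(A)+ RNA at 8 hpf, hsp70.3 was at 6.47 with rescue mRNA and 27.8 in triple loss, against 0.249 in WT, and hsp90aa1 at 87.0 with rescue mRNA and 136.5 in triple loss, against 0.731 in WT. The second entry was at 1.94 with rescue mRNA at 8 hpf, below its 9.94 in triple loss at 6 hpf, whereas hsp90aa1 was at 87.0 and 17.96 in the same libraries. At 6 hpf, hsp70.3 was at 0.557 with rescue mRNA and 3.97 in triple loss, against 0.362 in WT. For hsp90aa1 the 6 hpf levels were 10.5 with rescue mRNA and 17.96 in triple loss, against 1.82 in WT. All 3 belong to families of similar sequence, so their levels are uncertain in the same way, and whether reads were shared between hsp70.3 and the hspa8 entries was not tested.

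**Figure D5:**
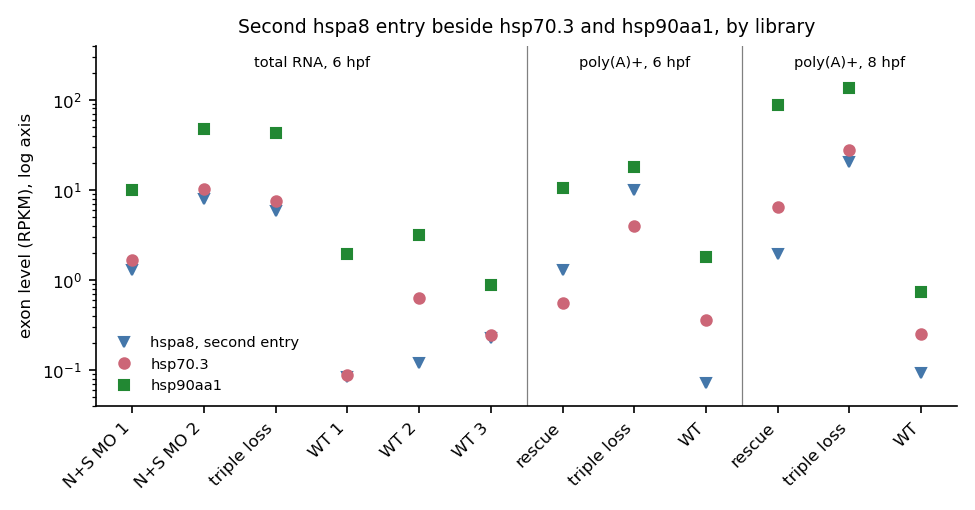
Exon level in RPKM (log axis) of the second hspa8 entry (blue), hsp70.3 (red) and hsp90aa1 (green) by library, total RNA at 6 hpf (left) and poly(A)+ RNA at 6 and 8 hpf (middle and right); N+S MO is Nanog + SoxB1 MO. All 3 are higher in Nanog + SoxB1 MO replicate 2 and in triple loss than in any WT library, and replicate 1 lies between.

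Markers of cell layers, stored oocyte RNA and p53 targets moved with the same contrast in these whole embryos, in which fewer cells of a type and less RNA per cell cannot be told apart. At 6 hpf the summed level of 5 yolk syncytial layer markers was 4.24 and 5.24 RPKM in Nanog + SoxB1 MO, against 351.9 to 409.8 in WT, and 5 of 5 fell, with hnf4a at 0 in replicate 1. Enveloping layer markers summed to 1246 and 1087 RPKM in Nanog + SoxB1 MO, against 3569 to 4374 in WT (8 of 10 fell). Oocyte-derived transcripts summed to 1516 and 1566, against 223.1 to 451.1 in WT (9 of 10 rose), and p53 response genes to 1103 and 1150, against 626.3 to 863.8 in WT (7 of 11 rose). Over all genes in this contrast 30.3% rose and 14% fell, or 17.8% and 24.9% after centring, and no marker list was tested against these shares. In poly(A)+ RNA at 6 and 8 hpf the yolk syncytial layer sum was 139.2 and 175.1 with rescue mRNA and 2.02 and 1.66 in triple loss, against 224.1 and 242.6 in WT. The part of these markers in the hspb1 and hspa8 results was not tested.

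Over the 24 total RNA libraries, Pearson's r of log2(RPKM + 0.5) was 0.57 between hspa8 and hspb1, −0.35 between hspa8 and the second entry, and −0.51 between hspb1 and the second entry. Among 9827 entries with a mean of at least 5 RPKM, the 5 named genes most like hspb1 were bmp7a (r = 0.94), a BMP ligand, dusp6 (0.93), a phosphatase of ERK kinases, msi1a (0.93), an RNA-binding protein, apoeb (0.92), an apolipoprotein, and mycn (0.91), a Myc family factor. Those most like hspa8 were ilf2 (0.98), nucks1 (0.98), csnk2b (0.98), a subunit of casein kinase 2, slc25a5 (0.98), a mitochondrial ADP/ATP carrier, and marcks (0.97). Those most like the second entry were sec22c (0.83), sntb2 (0.82), rhogd (0.82), rit1 (0.81) and cdc42ep5 (0.80). These points share stages, treatments and library depth, so the values describe the libraries and carry no p.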

How the data were processed

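Messenger RNA was measured in 24 total RNA and 7 poly(A)+ libraries and translation in 4 profiling libraries, in 32 labelled groups. The authors deposited exon and intron values in RPKM. The profiling table holds values in RPM as deposited by the authors: every value was a whole number of reads, within 0.1 read, times a single step per library. Libraries were strand-specific, and total RNA was depleted of ribosomal RNA, per the labels' protocols; no source used here states the strand setting of the counting. Per the submitters' processing notes, the tools were TopHat2 2.0.7, Bowtie 0.12.9 and CASAVA 1.8.2, with Zv9 (danRer7) as the build. No table used here holds sequence of that build, so no sequence or coordinate is printed.

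Symbols were found for 69.7% of the exon identifiers, 72.9% of the intron identifiers and 95.6% of the profiled transcripts. Differences were fitted with limma 3.58.1 in R 4.3.3 (lmFit, eBayes with trend) on log2(RPKM + 0.5), or log2(RPKM + 0.1) for introns, over entries that reached 1 RPKM (introns 0.5) in at least 2 libraries. A call required a two-sided Benjamini-Hochberg adjusted p under 0.05 over all entries tested. The 6 hpf fit took 11 libraries (3 residual degrees of freedom), the additive 4 hpf fit 8 (4) and the rescue fit, with stage as a block, 9 (4). Replicates are labelled only as separate samples, so p-values measure the spread between those samples, and in the 4 hpf and rescue fits that spread also holds effects that are not additive. In the 6 hpf fit, conditions with 1 library were assumed to vary like the replicated groups. The intron fit was added after seeing the data. Reads of low entries were estimated from the size of a single-read step; in 17 of 17 libraries with under 20 reads of the second hspa8 entry and in 10 of 10 for hspb1 introns the estimate was within 0.2 of a whole number. Exact intervals are binomial (Clopper-Pearson) for ratios and Poisson for levels, at 95%. Scripts were tested on simulated data.

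The members and lists were chosen with earlier results of these data known. Symbols with a paralog suffix were matched to the list name without it (ahsa1a as ahsa1), a choice made after seeing the table. Named genes were the 5 largest rises and 5 largest falls among called list members in each contrast, with hspb11, hsf1 and hsf2 always. Alternatives were other pseudocounts, other filters, centring each library on its median, subsets of libraries, a replicate block and leaving out each library. Whether the replicate numbers of WT and Nanog + SoxB1 MO at 6 hpf pair the libraries is unknown, and the main fit did not pair them.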

Additional observations from a re-analysis of the deposited data

Results flagged for a closer look

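With alpha-amanitin, hspa8 exons stood above WT at 4 hpf and below it at 6 hpf. The log2 ratio to WT was 0.24 at 4 hpf, with 1 library each, and −0.59 at 6 hpf, against the mean of 3 WT libraries. The opposite signs drew attention here, and the difference between the stages was not tested.

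The exon entry that joins hspa8 and snord14, left out of every comparison, held 1.14 RPKM in triple loss (MZpou5f1 Nanog + SoxB1 MO) total RNA at 6 hpf and was listed at 0 in the other 30 mRNA libraries, WT included.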

How the results depend on the processing

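Of the values that answer a comparison, recomputed without leaving out a library, 171 kept their direction and call or, where there was no test, moved by less than their spread. Of the rest 2 changed sign, 2 gained a call, 1 lost it, and 19 values or counts with no test moved by more (counts by over 1.5 times). The cause was not tested for any of them. Centring each library on its median gave −0.77 for hspa8 in Nanog + SoxB1 MO at 6 hpf and 0.016 for hspa8 in rescue against triple loss, a change of sign. It gave 4 chaperone calls in triple loss and 1 in rescue against WT, where 12.4% and 0.98% of all genes were called. It also turned the split of chaperone calls at 6 hpf to 18 higher and 25 lower, where 17.8% of all genes rose and 24.9% fell. A pseudocount of 0.1 gave the second hspa8 entry 3.82 in Nanog + SoxB1 MO at 6 hpf, 3.54 for MZpou5f1 at 4 hpf, 5.44 in triple loss and 3.78 in rescue against WT. There was 1 chaperone call in rescue against WT with that pseudocount, where 1.25% of all genes were called. A pseudocount of 1 gave the second entry 1.93 for MZpou5f1 and 3.24 in triple loss. The 6 poly(A)+ libraries alone gave −0.54 for hspa8 in triple loss, 0.16 for hspa8 in rescue against triple loss (adjusted p = 0.495, limma), −2.83 for the second entry there and −0.83 for hspb1 in rescue against WT. Chaperone calls in these 6 were 64, 26 and 46 in triple loss, rescue against triple loss and rescue against WT. The shares of all genes called were 69.8%, 32.4% and 50.5%. Without a filter on low values hspb1 in rescue against triple loss stayed at 5.91 but was not called (adjusted p = 0.0537, limma). Chaperone calls without the filter were 1 for Nanog MO and 1 for triple loss, where 2.59% and 1.2% of all genes were called. A filter at 5 RPKM gave 5 for triple loss, where 16.2% of all genes were called. Scaling to the median ratio put footprints per input of hspa8 at 0.141 in Nanog + SoxB1 MO and 0.0964 in WT.

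Leaving out each library gave these ranges of log2 differences. In Nanog + SoxB1 MO at 6 hpf, the second entry ran from 1.47 to 3.72. In triple loss hspa8 ran from −0.65 to −0.30, the second entry from 3.32 to 5.001 and hspb1 from −7.84 to −5.85. In rescue against triple loss hspa8 ran from −0.34 to 0.13, the second entry from −2.50 to −0.82 and hspb1 from 5.17 to 7.16, and in rescue against WT the second entry from 1.51 to 3.02. The MZpou5f1 effect on hspa8 introns ran from −0.35 to 0.11. The SoxB1 MO effect on the second entry ran from −0.04 to 0.07. Chaperone calls ran from 20 to 39 in Nanog + SoxB1 MO, 1 to 3 for Nanog MO, 0 to 46 in triple loss, 0 to 9 in rescue against triple loss and 0 to 28 in rescue against WT. Among other named genes 331 values kept direction and call, 93 lost the call and 3 gained it, and none changed sign.

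With the replicate number as a block in the 5 WT and Nanog + SoxB1 MO libraries, hspa8 stood at −0.31, the second entry at 2.69 and hspb1 at −6.15, and 47 chaperone genes were called, where 52.8% of all genes were, against 40 in the same libraries without the block, where 48.7% were. Over 14896 genes, replicate 1 minus replicate 2 in WT correlated at r = 0.099 with the same difference in Nanog + SoxB1 MO. That is 1 difference per group, so it cannot settle whether the numbers pair the libraries. Depth limits the second entry, of which WT held 5 reads at 6 hpf, and the hspb1 footprints, which held 16 reads in Nanog + SoxB1 MO and 10 in WT.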
